A study of Mus musculus with 36 samples.

Results

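The response of wild-type (WT) macrophages to lipopolysaccharide (LPS) while CCM was present was examined by setting the 3 WT libraries treated with LPS and CCM against the 3 WT libraries treated with CCM alone. These are 6 of the 36 RNA-seq libraries of the series, and they were taken by their labels, with no measured value used. CCM, the Core Circadian Modulator, is a small molecule that binds the PASB domain of BMAL1, a transcription factor of the circadian clock. The study asked what CCM does to gene expression in bone marrow-derived macrophages (BMDMs) at rest and under LPS, in WT cells and in cells without BMAL1. Here the question is which part of the LPS response remained when CCM was in the medium.

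Both WT groups were BMDMs of adult female C57BL/6 mice with the genotype Bmal1 flox/flox and no Cre, grown from marrow with MCSF for 7 days and then treated for 6 h. The CCM group received 100 µM CCM, and the LPS+CCM group received 100 µM CCM with 100 nM LPS. CCM was therefore shared by both groups and LPS was the only labelled difference. For comparison, WT cells with DMSO vehicle (n = 3) and with 100 nM LPS without CCM (n = 3) gave the LPS response without CCM. KO cells, from Bmal1 flox/flox mice with Cre under the myeloid LysM promoter (n = 6 per treatment), received the same treatments. In KO the gene is lost only in cells in which the LysM promoter has been active. Arntl (the gene of BMAL1) was at 7.10 to 13.1 CPM in the 12 WT libraries and at 1.60 to 12.1 CPM in the 24 KO libraries. CPM are counts scaled to the library total, for these ranges without TMM correction and elsewhere corrected by TMM. The ranges overlap, and reads outside the deleted part count in both genotypes. The labels number the replicates without saying that a number is an animal, so that p-values measure the spread between these libraries.

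LPS, a glycolipid of the outer membrane of Gram-negative bacteria, is bound by CD14 and by TLR4 with MD-2. Through the adaptor MyD88 this receptor activates NF-kB and MAP kinases, which turn on cytokine and chemokine genes. Through the adaptor TRIF it activates IRF3, which turns on interferon-beta, and secreted interferon then turns on interferon-stimulated genes through the JAK-STAT pathway.

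Between 18043196 and 20712295 read pairs were counted on genes in each of the 6 libraries. All 10 macrophage markers were detected in both groups, with a summed level of 21808 to 23663 CPM with CCM and 22833 to 23109 CPM with LPS+CCM, and these ranges overlap. The sum hides changes in both directions. Lyz2 (-0.34), Cd68 (-0.42), Tyrobp (-0.54) and Mertk (-0.71) were called lower, and Adgre1 (1.54), Fcgr1 (2.24) and Cd14 (2.63) higher (log2 fold change). Itgam, Mpeg1 and Csf1r, the receptor for MCSF, were not called. Csf1r was at 2115 ± 118 CPM (SD, n = 3) with CCM and at 2016 ± 53.2 CPM with LPS+CCM. Markers of other cells were also counted. Summed over 10 genes, neutrophil markers were at 440 to 707 CPM with CCM and 442 to 525 CPM with LPS+CCM, and the ranges overlap. Of these, Ly6g was at 0.153 ± 0.0759 and 0.0761 ± 0.0392 CPM (SD, n = 3), S100a8, S100a9 and Ngp were at means of 120.2 to 169 CPM and not called, Camp was called higher (0.66), and Ltf (-1.45), Elane (-1.67), Mpo (-1.82), Retnlg (-3.54) and Cxcr2 (-1.03) were called lower (log2 fold change). Fibroblast markers were at 327 to 793 and 603 to 697 CPM, and B cell markers at 25.7 to 60.2 and 28.3 to 167 CPM. T and NK cell markers, at 23.2 to 28.4 and 14.6 to 16.3 CPM, were nearly all Cd4. Endothelial markers, at 113 to 119 and 68.3 to 75.9 CPM, were mostly Vwf, and dendritic cell markers were at 4.8 to 6.2 and 2.8 to 3.4 CPM. The sums of these 3 lists were lower in every LPS+CCM library than in any CCM library, and their part in the results was not tested. Of the dendritic cell markers, Clec10a fell from a mean of 2.94 to 0.204 CPM, and Clec9a was also called lower (log2 fold change -0.96). Xcr1 was called higher (3.38, from 0.118 to 1.32 CPM), so that list did not fall as a whole. In bulk RNA, fewer cells of a type and less RNA per cell cannot be told apart.

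LPS changed the expression of most genes measured although CCM was present. Of 13907 genes tested, 8555 (61.5%) passed an adjusted p of 0.05 in edgeR's quasi-likelihood test and are called here, 4255 (30.6%) higher and 4300 (30.9%) lower with LPS+CCM than with CCM. The median called gene differed 1.69-fold. At least 2-fold, 1580 called genes (11.4%) were higher and 1674 (12%) were lower. At least 10-fold, 391 were higher and 94 lower, so that the large differences were mostly increases. The even split rests on TMM scaling, under which the midpoint of log2 fold changes over everything tested was -0.03. With total counts alone that midpoint moved to -0.34 and the split to 2595 higher and 6975 lower, and with upper-quartile scaling it was -0.19 with 3259 higher and 5564 lower. Fold changes near 0 therefore depend on the scaling, and those of several log2 units do not.

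A panel of 30 genes that are common readouts of macrophage activation was set beside the whole table. Its members were chosen with earlier results of these data known. All 29 that were tested rose, at a median log2 fold change of 7.65 (-0.03 for all genes tested). The cytokine Tnf, which NF-kB induces within the first hours, was at 23.0, 18.5 and 21.0 CPM in the 3 CCM libraries and at 1275, 1046 and 962 CPM in the 3 LPS+CCM libraries, with no overlap. Its log2 fold change was 5.72 ± 0.13 (SE, n = 3 per group, adjusted p = 7.28e-11). Il6, an acute-phase cytokine, rose from 0.236, 0.286 and 0.378 CPM to 285, 311 and 229 CPM, which is a log2 fold change of 9.80 ± 0.19 (SE). Il1b and Il1a, the precursors of interleukin-1, rose by 10.62 ± 0.18 and 8.55 ± 0.19 (SE) on the log2 scale, and Il10, an anti-inflammatory cytokine, by 3.09 ± 0.17 (SE). Each LPS+CCM library lay above each CCM library for these genes.

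The enzymes of the panel rose as far. Acod1, which makes itaconate, went from 4.19, 4.44 and 4.62 CPM with CCM to 5969.8, 5813 and 5369 CPM with LPS+CCM (log2 fold change 10.34 ± 0.092, SE, adjusted p = 6.15e-13). Nos2, the inducible nitric oxide synthase, had 10 counts in the 3 CCM libraries together and was at 207, 200.5 and 199 CPM with LPS+CCM. Ptgs2, the inducible cyclooxygenase, was at 8.71, 16.3 and 24.9 CPM and then 763, 695 and 594 CPM, again without overlap. Il23a, a subunit of interleukin-23, had 0 counts in the CCM libraries and was at 1.15, 1.07 and 0.961 CPM with LPS+CCM, which is at least 20.7-fold higher against a floor of 3 counts over the group. Ifnb1, the gene of interferon-beta, had 0 counts with CCM and 20 counts with LPS+CCM (0.485, 0.376 and 0.267 CPM), too few for the filter on low counts, and was at least 7.32-fold higher by the same floor. Csf3, a granulocyte growth factor, had 1 count with CCM and 1250 with LPS+CCM.

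**Figure D1:**
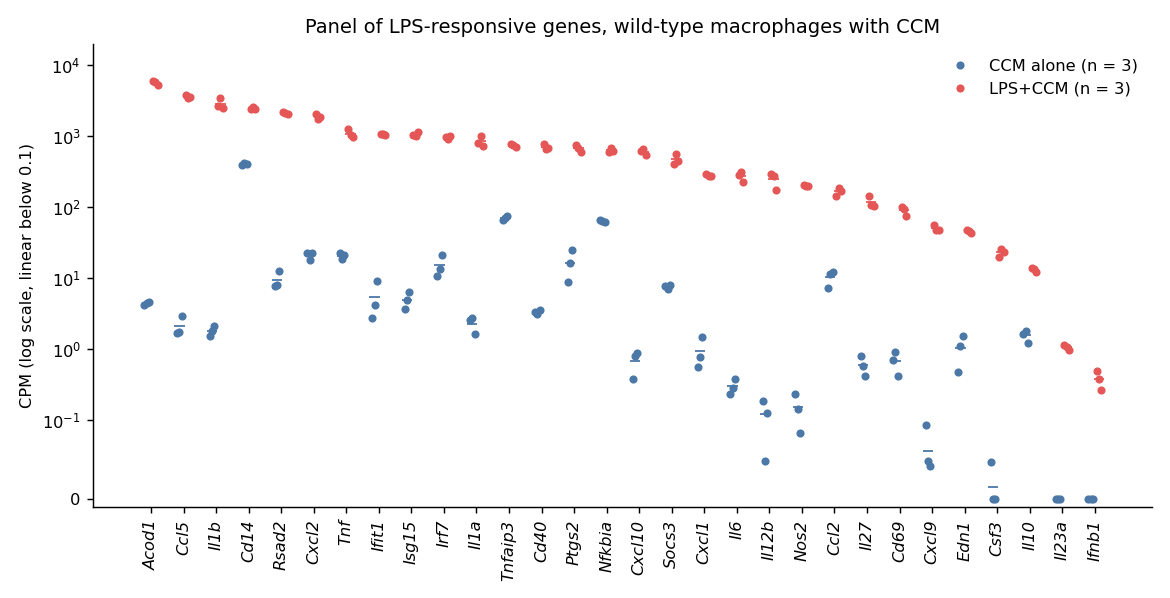
Levels of the 30 panel genes (CPM, log axis, linear below 0.1) in the 3 CCM and the 3 LPS+CCM libraries of WT macrophages, with points for libraries and short lines for means; genes are in order of their LPS+CCM level, which is not corrected for gene length. The LPS+CCM points lie above the CCM points for each of the 30 genes, against 67.3% of all tested genes whose groups do not overlap in either direction.

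Upstream sequences are shown for 4 panel genes that span the panel. Il12b and Il1a had the most negative difference between the LPS responses with and without CCM among panel genes with an entry, and Il1b and Isg15 the difference nearest to 0. Ifit1 was added after its values were seen, as another interferon-stimulated gene. They are the 250 bases before the RefSeq gene start on the gene's strand (build GRCm38.p6), at chr11:44399813-44400062 (+) for Il12b, chr2:129309973-129310222 (-) for Il1a, chr2:129371140-129371389 (-) for Il1b, chr4:156200819-156201068 (-) for Isg15 and chr19:34640639-34640888 (+) for Ifit1. Capitals mark matches to motifs in either strand: TATANA from 40 to 15 bases before the start on the gene's own strand (a TATA box), TGANTCA (the AP-1 site) and GAAA, 2 bases of any kind and GAAA again (the core of the interferon-stimulated response element, ISRE).
Il12b: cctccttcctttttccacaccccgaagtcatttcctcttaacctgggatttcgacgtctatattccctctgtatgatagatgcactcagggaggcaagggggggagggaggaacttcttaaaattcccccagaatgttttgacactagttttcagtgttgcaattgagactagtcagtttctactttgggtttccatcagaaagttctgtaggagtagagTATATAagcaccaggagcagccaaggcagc
Il1a: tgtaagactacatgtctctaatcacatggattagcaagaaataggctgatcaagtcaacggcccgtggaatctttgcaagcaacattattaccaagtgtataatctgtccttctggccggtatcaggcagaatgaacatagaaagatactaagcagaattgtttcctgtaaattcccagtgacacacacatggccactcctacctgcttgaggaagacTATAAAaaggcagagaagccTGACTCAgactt
Il1b: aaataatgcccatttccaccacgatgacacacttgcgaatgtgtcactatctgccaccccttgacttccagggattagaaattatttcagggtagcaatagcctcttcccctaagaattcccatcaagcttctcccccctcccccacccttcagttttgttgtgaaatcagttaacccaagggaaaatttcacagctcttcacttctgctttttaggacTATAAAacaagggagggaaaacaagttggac
Isg15: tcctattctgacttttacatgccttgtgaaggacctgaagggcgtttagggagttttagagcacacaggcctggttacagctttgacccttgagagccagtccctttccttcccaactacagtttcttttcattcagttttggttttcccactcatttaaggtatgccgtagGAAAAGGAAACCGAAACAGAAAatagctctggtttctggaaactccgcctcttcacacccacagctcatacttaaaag
Ifit1: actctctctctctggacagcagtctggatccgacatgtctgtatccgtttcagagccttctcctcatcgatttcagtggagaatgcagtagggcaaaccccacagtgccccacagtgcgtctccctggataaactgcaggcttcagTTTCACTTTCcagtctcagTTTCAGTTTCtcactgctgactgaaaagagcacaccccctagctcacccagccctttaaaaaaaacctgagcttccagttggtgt
The 3 interleukin sequences hold a TATA box that starts 30 to 32 bases before the start. Isg15 holds 3 overlapping ISRE cores between 78 and 57 bases before the start, and Ifit1 holds 2, read on the other strand. None of the sequences shown holds a match to a strict kappa B motif in these 250 bases.

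Of the genes tested, 10036 had a RefSeq entry in the promoter table, among them 1103 of the 1580 genes called at least 2-fold higher and 1212 of the 1674 called at least 2-fold lower. An ISRE core was in the window of 8.16% of the first set, 2.06% of the second, 2.86% of the genes tested and 2.98% of all 20482 promoters. A kappa B motif was in 12.5%, 8.17%, 8.71% and 7.47%, in the same order, and an AP-1 site in 7.62%, 4.95%, 4.31% and 6.4%. The E-box CACGTG, the site that BMAL1 and CLOCK bind, was in 6.71%, 8.66%, 8.42% and 6.43%. These shares are descriptions of letters in a window, with no test.

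Gene lists were then read by the roles of their members, from the receptor to the late targets. Their counts stand beside 30.6% higher and 30.9% lower among all genes tested, and a count near these shares does not set a list apart. The lists were chosen with earlier results of these data known, so the counts are descriptions. At the receptor, 16 of 23 members tested rose and 3 fell, with a median log2 fold change of 0.58. Cd14, which hands LPS to the receptor, rose from 391, 425 and 405 CPM with CCM to 2441, 2612 and 2464 CPM with LPS+CCM (log2 fold change 2.63 ± 0.055, SE). Irak3, a kinase-like inhibitor of the pathway, rose by 3.76 ± 0.061 (SE) and Ikbke, a kinase that acts on IRF3, by 2.56 ± 0.058 (SE) on the log2 scale. Tlr4 itself fell, from 72.1, 66.8 and 65.4 CPM to 49.9, 56.7 and 48.1 CPM, a log2 fold change of -0.40 ± 0.073 (SE, adjusted p = 0.000788). The kinase gene Irak1 fell by a similar amount, -0.41 ± 0.061 (SE). Irak4 was at -0.17 ± 0.065 (SE, adjusted p = 0.0471) and was not called in 11 of 16 alternative settings.

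Of 15 genes of NF-kB subunits and inhibitors, 14 rose and 0 fell (median 2.57). Nfkbia, the inhibitor that NF-kB induces against itself, went from 66.5, 65.0 and 62.4 CPM with CCM to 610.2, 676 and 625 CPM with LPS+CCM. Nfkb2, whose product is p100, rose by 3.70 ± 0.06 (SE), Nfkbiz by 3.68 ± 0.081 (SE) and Nfkbie by 3.60 ± 0.061 (SE). Inducible transcription factors went both ways, with 19 of 37 higher and 11 lower (median 0.31, and 0.0034 with total counts alone). The share that was lower is near that of all genes tested (30.9%). Irf7, the interferon regulatory factor that amplifies the interferon response, rose by 6.00 ± 0.20 (SE), Batf2 by 4.21 ± 0.10 (SE) and Batf by 4.08 ± 0.086 (SE). Fos and Jun, immediate early genes of AP-1, were lower at 6 h. Fos was at 214, 244 and 220.2 CPM with CCM and at 71.5, 74.9 and 86.1 CPM with LPS+CCM, and Jun fell by a log2 fold change of -1.43 ± 0.083 (SE). Batf3 was also lower (-1.55 ± 0.27, SE).

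Cytokine genes were raised in 26 of 30 cases and lowered in 2 (median 5.05, and 4.65 with Il23a set at its lower bound). Il12b, the shared subunit of interleukin-12 and interleukin-23, was at 0.188, 0.0477 and 0.126 CPM with CCM and at 295, 278 and 175 CPM with LPS+CCM. The members that fell were Vegfa, a growth factor for vessels (-1.53 ± 0.14, SE), and Osm, oncostatin M (-1.06 ± 0.13, SE). Of 22 chemokine genes, 18 rose and 2 fell (median 4.30). Ccl5, a T cell attractant, was at 1.70, 1.77 and 2.90 CPM with CCM and rose to 3779, 3448 and 3583 CPM with LPS+CCM (log2 fold change 10.71 ± 0.14, SE). Cxcl10, an interferon-induced chemokine, rose by 9.76 ± 0.15 (SE) and Cxcl3, a neutrophil attractant, by 10.04 ± 0.21 (SE). Cxcl14 (-1.54 ± 0.077, SE) and Ccl6 (-0.76 ± 0.16, SE) fell.

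Among 30 receptors for chemokines and cytokines, 15 rose and 8 fell (median 0.51, and 0.20 with 12 lower under total counts alone). The share that fell is near that of all genes tested (30.9%). The formyl peptide receptor genes Fpr1 and Fpr2, which sense bacterial peptides, rose by 6.76 ± 0.09 and 7.50 ± 0.074 (SE). Fpr2 overlaps Fpr3 in the annotation. Cxcr4, a receptor that holds leukocytes in the marrow, went the other way, from 146, 137 and 111 CPM with CCM to 4.67, 3.27 and 5.29 CPM with LPS+CCM (log2 fold change -4.89 ± 0.15, SE, adjusted p = 6.55e-10). Ccr2, the receptor of monocytes for Ccl2, fell as well (-2.97 ± 0.21, SE).

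All 55 interferon-stimulated genes rose, 53 of them at least 2-fold, with a median log2 fold change of 4.35. Ifit1, which binds viral RNA, was at 2.73, 4.25 and 9.28 CPM with CCM and at 1075, 1089 and 1049 CPM with LPS+CCM, a log2 fold change of 7.60 ± 0.28 (SE). The CCM libraries spread widely for this gene, and the LPS+CCM libraries lay close together. Isg15, a ubiquitin-like modifier, rose from 3.67, 4.92 and 6.43 CPM to 1049, 1017 and 1133 CPM (7.73 ± 0.14, SE). Rsad2 (viperin) rose by 7.79 ± 0.17, the GTPase gene Gbp5 by 10.10 ± 0.13, Ifi205 by 9.21 ± 0.18 and Mx1, another antiviral GTPase, by 8.26 ± 0.20 (each log2, SE). Ifi205 belongs to a family of near-identical genes and is uncertain to that extent.

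Genes that feed back on signalling were higher in 20 of 33 cases and lower in 8 (median 2.28). Socs3, an inhibitor of JAK-STAT signalling, rose from 7.72, 7.07 and 7.98 CPM with CCM to 408, 572 and 448 CPM with LPS+CCM (5.97 ± 0.14, SE). Il1rn, the interleukin-1 receptor antagonist, rose by 4.93 ± 0.21 (SE) and Cd274 (PD-L1) by 3.96 ± 0.08 (SE). The members that fell most were Rgs2 (-3.64 ± 0.10, SE) and Rgs1 (-2.26 ± 0.10, SE), regulators of G-protein signalling, and Zfp36l1 (-2.22 ± 0.16, SE), which promotes the decay of AU-rich mRNAs.

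Inducible metabolic enzymes and transporters rose in 32 of 40 cases and fell in 2 (median 1.64). Saa3, an acute-phase protein counted with this list, was at 1.88, 7.16 and 7.31 CPM with CCM and rose to 6197, 7601 and 7052 CPM with LPS+CCM. The members lowered were Ptgs1, the constitutive cyclooxygenase (-1.81 ± 0.10, SE), and Glul, glutamine synthetase (-1.24 ± 0.07, SE). Of 26 genes for costimulation and antigen presentation, 23 rose and 1 fell (median 2.18). Cd40 rose by 7.71 ± 0.10 (SE) and Icam1, an adhesion molecule, by 4.86 ± 0.086 (SE). The member that fell was Cd83, at 24.1, 24.1 and 26.6 CPM with CCM and 15.8, 12.4 and 15.4 CPM with LPS+CCM.

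**Figure D2:**
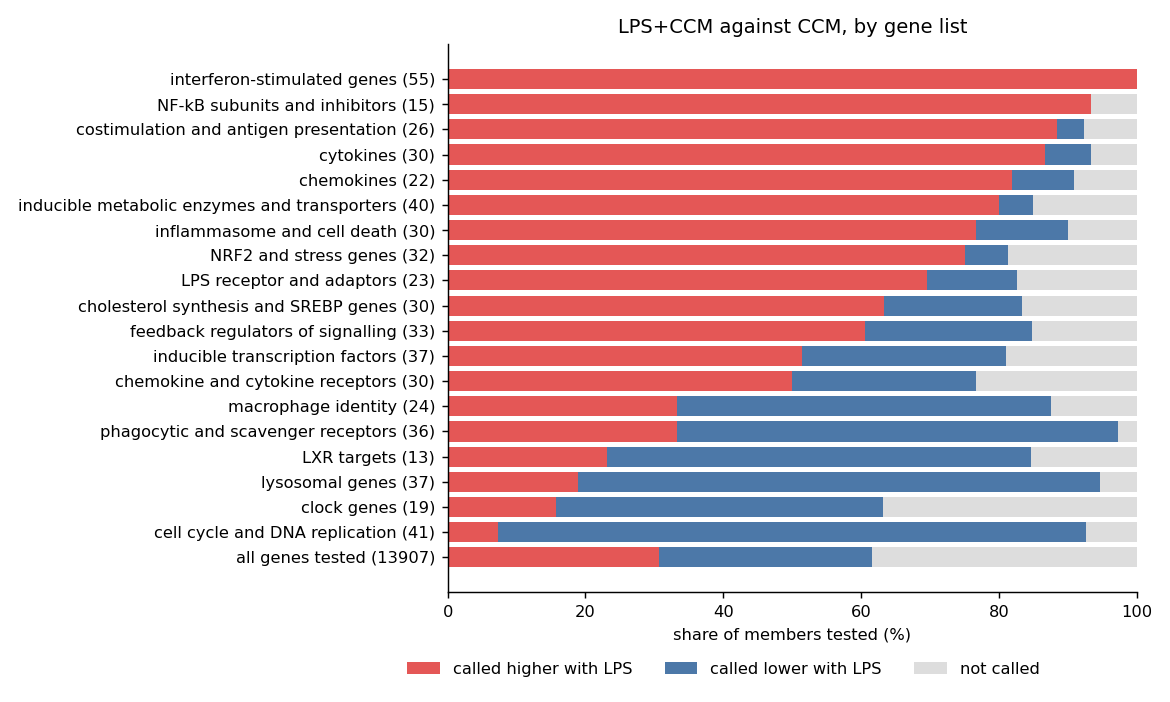
Share of the tested members of 19 gene lists (number tested in parentheses) that were called higher, called lower or not called in LPS+CCM against CCM, in percent, with all tested genes in the lowest bar. Interferon-stimulated genes were all higher, and cell cycle genes stand at the other end with 35 of 41 lower, beside 30.6% higher and 30.9% lower among all tested genes.

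Other lists moved mostly down. Of 36 phagocytic and scavenger receptors, 12 rose and 23 fell (median -0.45), and the share that rose is near that of all genes tested (30.6%). Clec4e, which senses mycobacterial glycolipid and dead cells, rose from 9.89, 10.7 and 12.1 CPM with CCM to 2647, 2527 and 2328 CPM with LPS+CCM. The scavenger receptor Marco rose by 8.48 ± 0.33 (SE) and the inhibitory Fc receptor Fcgr2b by 3.17 ± 0.11 (SE). Among those that fell were Gas6, which bridges dying cells to receptors (-2.51 ± 0.077, SE), Itgb5, an integrin subunit (-2.20 ± 0.054, SE), and Clec7a (dectin-1, -1.49 ± 0.085, SE).

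Lysosomal genes fell in 28 of 37 cases and rose in 7 (median -0.49). Atp6v0d2, a subunit of the proton pump, went from 460.4, 509 and 547 CPM with CCM to 80.4, 85.4 and 92.8 CPM with LPS+CCM (-2.55 ± 0.078, SE). Galc (-1.85 ± 0.05, SE) and Lipa (-1.16 ± 0.061, SE), both lipid hydrolases, were lower, and the protease genes Ctsc (2.68 ± 0.06, SE) and Ctsz (0.87 ± 0.05, SE) were higher.

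Lipid genes split. Among 30 genes of cholesterol synthesis and SREBP control, 19 rose and 6 fell (median 0.41), a balance that went to 13 and 11 (median 0.099) with total counts alone. Hsd17b7, an enzyme of sterol synthesis, rose by a log2 fold change of 1.42 ± 0.093 (SE). Dhcr7, which completes cholesterol synthesis, fell (-2.12 ± 0.10, SE). Of 13 targets of the sterol receptor LXR, 3 rose and 8 fell (median -0.53). The cholesterol exporter gene Abca1 rose (0.75 ± 0.073, SE), and Abcg1, which also exports cholesterol, fell (-2.15 ± 0.075, SE). Arl4c fell from 277, 263 and 259 CPM with CCM to 32.1, 30.4 and 32.7 CPM with LPS+CCM.

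Cell cycle genes were lower in 35 of 41 cases (median -1.25). E2f2, a factor for S phase entry, was at 29.7, 26.4 and 23.0 CPM with CCM and at 1.54 ± 0.328 (SD, n = 3) CPM with LPS+CCM (-4.10 ± 0.16, SE). Mcm7, of the replicative helicase, fell by a log2 fold change of -1.90 ± 0.13 (SE) and overlaps other genes. The 3 members that rose were Cdkn1a, the inhibitor p21 (2.71 ± 0.093, SE), Ccnd2 (2.75 ± 0.18, SE) and Ccnd3 (0.95 ± 0.094, SE).

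Of 19 clock genes, 9 fell and 3 rose (median -0.80). Dbp, an output gene of the clock, was at 4.62, 4.49 and 4.54 CPM with CCM and 0.849, 1.34 and 1.39 CPM with LPS+CCM (-1.91 ± 0.23, SE). Tef (-1.65 ± 0.10, SE) and Bhlhe40 (-1.53 ± 0.076, SE) were lower too. Cry1, a repressor of the clock, rose from 7.91, 7.35 and 7.90 CPM to 22.4, 21.2 and 21.3 CPM (1.49 ± 0.093, SE, adjusted p = 1.76e-07). Arntl was at 9.37, 8.83 and 11.4 CPM with CCM and 13.2, 11.8 and 12.8 CPM with LPS+CCM, and its log2 fold change of 0.35 ± 0.13 (SE, adjusted p = 0.0344) was not called in 8 of 16 alternative settings. Cry2 (0.53 ± 0.16, SE) lost its call in 5 of 16.

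Among 32 NRF2 and stress genes, 24 rose and 2 fell (median 0.75, with 19 and 7 under total counts alone). Slc7a11, the cystine transporter, rose from 57.5, 51.5 and 52.1 CPM with CCM to 1711, 1452 and 1337 CPM with LPS+CCM, and Hspa1a, a heat shock protein that shares sequence with Hspa1b, rose by 3.47 ± 0.18 (SE). Of 30 inflammasome and cell death genes, 23 rose and 4 fell (median 1.66). Nlrp3, the sensor of the inflammasome, rose from 36.3, 33.2 and 36.5 CPM to 636, 539.6 and 517 CPM, and Nlrp1b fell (-3.62 ± 0.20, SE).

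Genes of macrophage identity were mixed, with 8 of 24 higher and 13 lower (median -0.32), beside 30.6% and 30.9% of all genes tested. The share that was higher is near that of all genes. Adgre1 (F4/80) rose from 773, 755 and 754 CPM with CCM to 2235, 2308 and 2091 CPM with LPS+CCM (1.54 ± 0.054, SE), and Fcgr1 by 2.24 ± 0.065 (SE). Cebpa, a factor for myeloid cell fate, fell from 609, 609.8 and 557 CPM to 97.0, 82.1 and 101 CPM (-2.66 ± 0.08, SE), and the chemokine receptor gene Cx3cr1 fell as well (-1.48 ± 0.15, SE). Over all genes with an average log2 CPM of at least 3, the largest falls were Slco2b1, an organic anion transporter (from 30.6, 32.1 and 31.5 to 0.546, 0.429 and 0.588 CPM, log2 fold change -5.89 ± 0.13, SE), and St6gal1, a sialyltransferase (-5.54 ± 0.11, SE). Zdhhc14, Rnf150, Cxcr4, Hpgd, Cd28, Arhgap19, Pald1 and Slc26a11 followed at -5.19, -4.90, -4.89, -4.86, -4.67, -4.41, -4.29 and -4.15. The largest increases under the same limits were Il12b, Ccl5, Il1b, Acod1, Nos2, Saa3, Gbp5, Shisa3, Csf3 and Cxcl3. Shisa3, with 3 counts in the CCM libraries, overlaps Atp8a1.

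How this response compares with the one without CCM was examined next, with libraries that the 2 contrasts do not share. LPS against vehicle called 9139 of 14501 genes (63%), 4441 (30.6%) higher and 4698 (32.4%) lower, with a median called change of 1.83-fold. Of the genes tested in both and called higher with CCM, 3794 (89.3%) were also called higher without, which is 87.7% of those called higher without. For genes called lower the number was 3821, or 89.3% of those with CCM and 83.4% of those without. The call was opposite for 7 genes.

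The size of the response was measured on genes chosen in other libraries, those called for LPS against vehicle in KO cells. That contrast called 22.4% of its tested genes higher and 24.7% lower.  In each stimulated WT library, the median log2 difference from the mean of its unstimulated group was taken. Over 3058 genes that LPS raised in KO and that were tested here, these medians were 0.953, 0.928 and 0.920 in the 3 LPS+CCM libraries and 1.07, 1.07 and 1.06 in the 3 LPS libraries. With CCM the mean response was 0.934 ± 0.017 (SD, n = 3) and without it 1.07 ± 0.0078, a difference of -0.13, or 87.7% of the response on the log2 scale. Over 3373 genes that LPS lowered in KO, the medians were -0.931, -0.869 and -0.876 with CCM and -1.10, -1.05 and -1.04 without it, so the mean was -0.89 ± 0.034 against -1.06 ± 0.028 and 83.8% of the response remained. The groups did not overlap in either class, nor over the 7200 genes not called in KO. In those 7200 the means were -0.0066 with CCM and -0.050 without, a difference of 0.043. An exact permutation test gave p = 0.1 for each class, two-sided, the smallest that 3 against 3 allows. Since the 7200 genes gave the same p, it does not set the responding genes apart. It covers the spread of the stimulated libraries only, since libraries of a group share 1 baseline. With total counts alone the differences for raised and lowered genes were -0.05 and 0.25. With genes chosen without KO replicate 6 they were -0.08 and 0.13. The libraries of that replicate stand apart (common coefficient of variation of KO LPS and vehicle libraries 0.304 with it and 0.122 without).

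**Figure D3:**
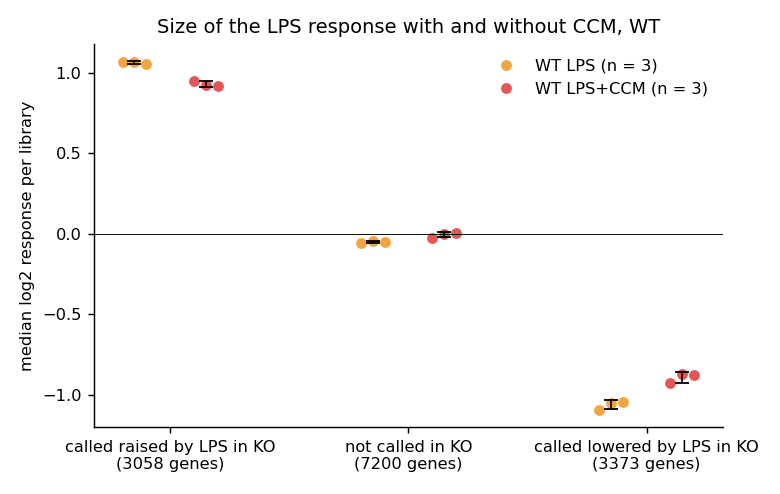
Median log2 response of each stimulated WT library (points, 3 per group) over genes called raised, not called or called lowered by LPS in KO cells, with the SD around the mean as bars. LPS+CCM libraries lie nearer to 0 than LPS libraries for raised (0.934 against 1.07) and lowered genes (-0.89 against -1.06). Genes not called in KO lie near 0 in both groups, also without overlap (means -0.0066 against -0.050).

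For single genes, the difference between the responses was tested as the LPS by CCM interaction in the 12 WT libraries. The test called 308 of 14747 genes (2.09%), of which 69 (0.468% of those tested) responded more positively with CCM and 239 (1.62%) more negatively. With total counts alone the split turned to 230 more positive and 117 more negative, and with upper-quartile scaling it was 88 and 180, so the balance of directions depends on the scaling. Leaving out any of the 12 libraries in turn left 149 to 295 genes called. Of the 308 genes, 212 had a positive log2 fold change in both settings that was smaller with CCM (median 1.27 against 1.73), and 201 of these were called higher with CCM. Another 51 had a negative one nearer to 0 with CCM (median -1.01 against -1.60), of which 49 were called lower. The fold change was larger with CCM in the same direction for 10 positive and 14 negative genes, and 21 had opposite signs. These medians describe genes chosen for the difference. Of the 30 panel genes tested in this fit, edgeR called 0, and their median interaction was -0.43. Of the 29 also tested in LPS+CCM against CCM, 10 had an unadjusted p under 0.05. DESeq2 called 8 of them and an edgeR fit blocked on replicate number 6, all more negative with CCM. Both called Tnf, Il1a, Cd40, Cd69, Rsad2 and Tnfaip3, and DESeq2 also called Nos2 and Acod1. RLE scaling called 1 (Rsad2), voom 1 (Tnfaip3), and total-count or upper-quartile scaling 0. With no filter beyond 1 count edgeR called 10 of the 29, all more negative, so the number called depends on the setting. Over all genes tested, DESeq2 called 688 of 14747, the blocked fit 548 of 14747 and the fit without the filter 721 of 27859. Where the main edgeR test missed the threshold, the 95% interval of the difference, not adjusted for the number of genes, was often wide. It was -0.78 to -0.13 for Tnf, -2.07 to 0.64 for Il6, -0.71 to 0.65 for Il1b and -0.39 to 0.47 for Isg15, so that these data do not show the responses to be equal.

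**Figure D4:**
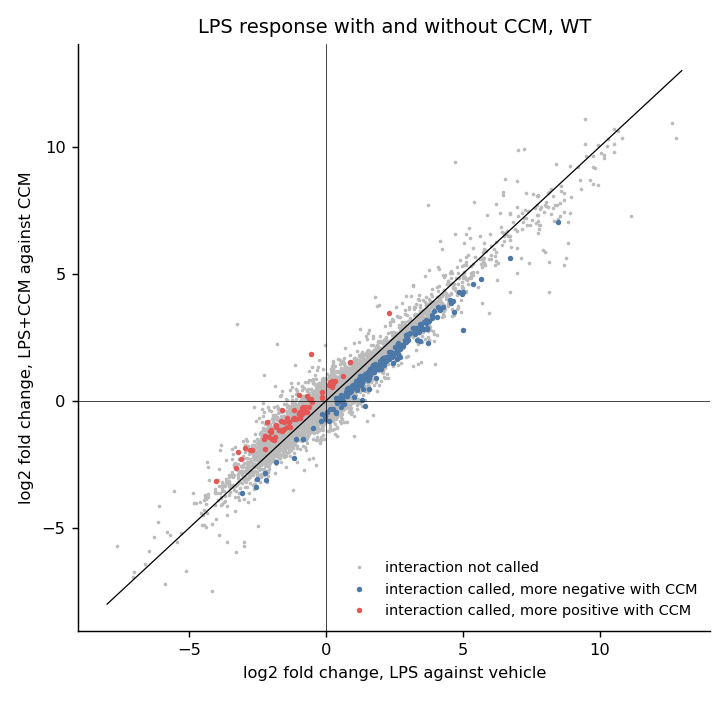
Log2 fold change of each gene with LPS+CCM against CCM (vertical) and with LPS against vehicle (horizontal), with the line of equal response; blue and red mark the 239 and 69 genes whose interaction was called more negative or more positive. Most genes lie along the line, and the blue points are mainly below it among raised genes.

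Interferon-stimulated genes had 12 of 55 members called, all more negative and all still raised with CCM. Over all genes tested, 1.62% were called more negative. Here and below, the lists were chosen with earlier results of these data known, so list counts beside that share describe the lists and do not test them. With total counts alone 9 of the 55 were called, also all more negative, and with all 36 libraries 0. Iigp1, an interferon-induced GTPase, was at 0.471, 0.477 and 0.588 CPM with CCM, 75.4, 63.9 and 68.3 CPM with LPS+CCM and 155, 138 and 148 CPM with LPS, and the stimulated groups did not overlap. Its log2 response was 7.06 with CCM and 8.48 without, a difference of -1.41 ± 0.28 (SE, adjusted p = 0.0190). Isg20, an exonuclease, differed by -1.09 ± 0.19 (SE), the RNA helicase Ifih1 (MDA5) by -0.72 ± 0.093 (SE) and the ubiquitin ligase Trim21 by -0.81 ± 0.11 (SE). The GTPase genes Irgm1, Irgm2 and Igtp differed by -0.58, -0.63 and -0.57. Irgm2 and Igtp overlap each other in the annotation, as do Parp9 (-0.56) and Dtx3l (-0.42). Trim25 differed by -0.49.

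The peptide transporters Tap1 and Tap2 and the proteasome subunit Psmb9, which load antigen on MHC class I, differed by -0.58, -0.37 and -0.37, and their activator Nlrc5 by -0.62. Psmb9 lost its call in 14 of 20 alternative settings. With Cd274 and Cd83 these are 6 of 26 genes for costimulation and antigen presentation, all more negative, beside 1.62% of all genes tested. Tap1 and Psmb9 are also counted among the interferon-stimulated genes called above, so the lists are not separate. With total counts alone 4 of the 26 were called, also all more negative, and with all 36 libraries 0. Cd83 was at 15.8, 12.4 and 15.4 CPM with LPS+CCM and 32.9, 27.1 and 26.7 CPM with LPS, from 24.1, 24.1 and 26.6 CPM with CCM and 31.2, 25.4 and 25.9 CPM with vehicle. LPS thus lowered it with CCM (-0.77 ± 0.10, SE) and was not called without (0.10, adjusted p = 0.432). The difference was -0.87 ± 0.16 (SE, adjusted p = 0.0120).

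Inflammasome and cell death genes had 9 of 30 members called, all more negative, beside 1.62% of all genes tested. With total counts alone 4 were called, 1 more positive and 3 more negative. When a library was left out 3 to 8 were called, and with all 36 libraries 0. Among the 9 were the caspase gene Casp8 (-0.48), the DNA sensor Aim2 (-0.50), the kinase Ripk2 (-0.56), the caspase-8 inhibitor Cflar (-0.49), the cytokine Il18 (-0.74) and the survival genes Bcl2a1b and Bcl2a1d (-0.76 and -0.69), near-identical copies. Il18 lost its call in 14 of 20 alternative settings. Il15, which sustains NK and memory T cells, was at 51.3, 43.9 and 44.5 CPM with LPS+CCM and 116, 99.7 and 102 CPM with LPS, without overlap, and its response differed by -1.07 ± 0.13 (SE, adjusted p = 0.00274). Its receptor chain Il15ra differed by -0.74 ± 0.14 (SE). The chemokine Ccl3 differed by -0.78 ± 0.17 (SE), with 1369, 1295 and 1093 CPM in LPS+CCM and 2384, 2402 and 2005 CPM in LPS libraries.

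In signalling, Ccrl2, an atypical receptor for chemerin, had a smaller response with CCM: 22.5, 19.4 and 22.1 CPM with CCM and 272, 224 and 228 CPM with LPS+CCM, against 19.8, 15.7 and 19.7 CPM with vehicle and 489, 444 and 439 CPM with LPS. The difference was -1.15 ± 0.14 (SE, adjusted p = 0.00240). Nfkb2 (-0.38), Rel (-0.50), Irf1 (-0.60), Stat3 (-0.40) and Batf2 (-0.74) also rose less with CCM. Rel lost this call in 14 of 20 alternative settings and Irf1 in 9 of 20. Rgs1 was lowered more with CCM, to 66.8, 47.8 and 62.0 CPM against 113, 121 and 119 CPM with LPS (-1.10 ± 0.13, SE), as was Rgs2 (-0.56 ± 0.13, SE), whose call was lost in 14 of 20. Mertk, a receptor for dying cells, fell from 188, 169 and 169 CPM with CCM to 109.8, 102 and 109 CPM with LPS+CCM. Without CCM it was at 127, 118 and 148 CPM with vehicle and 126, 128 and 119 CPM with LPS. The stimulated groups therefore lie close to each other and the CCM group lies highest, and the response differed by -0.65 ± 0.11 (SE, adjusted p = 0.00663).

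Kdr, the VEGF receptor 2, was raised by LPS without CCM (1.32) and was at 0.021 with CCM, where its libraries overlapped. It was at 6.92, 7.93 and 7.27 CPM with CCM and 8.13, 7.19 and 7.05 CPM with LPS+CCM, and at 8.34 ± 3.18 (SD, n = 3) CPM with vehicle and 21.4, 19.8 and 20.7 CPM with LPS. A single vehicle library lies above the others. Gdf15, a stress cytokine, rose by 0.48 ± 0.14 (SE) with CCM and by 1.57 without, from a higher level with CCM (35.4, 35.1 and 31.4 CPM) than with vehicle (30.3, 23.9 and 24.4 CPM).

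More positive responses with CCM were fewer under TMM scaling and more numerous with total counts alone. Clspn, a checkpoint adaptor, was at 2.97, 4.78 and 3.85 CPM with LPS+CCM and 1.82, 1.96 and 2.10 CPM with LPS, and its response differed by 1.21 ± 0.26 (SE, adjusted p = 0.0274). Prim1, Mcm5, E2f1 and Ccnd1 differed by 0.89, 0.71, 0.60 and 0.77. Clspn and Prim1 are outside the cell cycle list, and each lost its call in 10 of 20 alternative settings. In that list, 3 of 41 members were called more positive and 1, Cdkn1a (-0.70), more negative. Of 30 genes of cholesterol synthesis and SREBP control, 4 were more positive and 0 more negative, beside 0.468% and 1.62% of all genes tested. Among the 4 were Sqle (0.45), Fasn (0.44) and Scd2 (0.88), enzymes of sterol or fatty acid synthesis. Pparg, a lipid-sensing nuclear receptor, was lowered in both settings and less so with CCM (-3.15 against -4.01).

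Slc16a6, a ketone body transporter, fell with LPS alone, from 17.6, 20.2 and 22.2 CPM with vehicle to 12.3, 12.4 and 12.2 CPM, and was at 32.3, 29.2 and 30.9 CPM with CCM and 33.8, 38.6 and 31.5 CPM with LPS+CCM. With CCM its groups overlapped, and the response differed by 0.86 ± 0.14 (SE, adjusted p = 0.00658). It overlaps Amz2 and Arsg. Glul was lowered less with CCM (-1.24 against -2.02), and Sesn1, a stress-induced inhibitor of mTORC1, likewise (-2.27 against -3.12). By edgeR, 0 of 37 lysosomal, 0 of 19 clock and 0 of 23 LPS receptor genes were called in this test. Over all 14747 genes tested 2.09% were called, a share at which lists of this size hold few calls. An unadjusted p under 0.05 was found for 5, 2 and 7 of these members and for 2060 of all genes tested. DESeq2 called 3 lysosomal genes (among them Lamp2 and Atp6v0d2), 0 clock genes and 5 receptor genes (Myd88, Irak2, Tbk1, Ikbke and Ikbkb), each more negative with CCM. A fit blocked on replicate number called 2, 0 and 4 members. Over all 14747 genes tested, DESeq2 called 688 and the blocked fit 548.

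**Figure D5:**
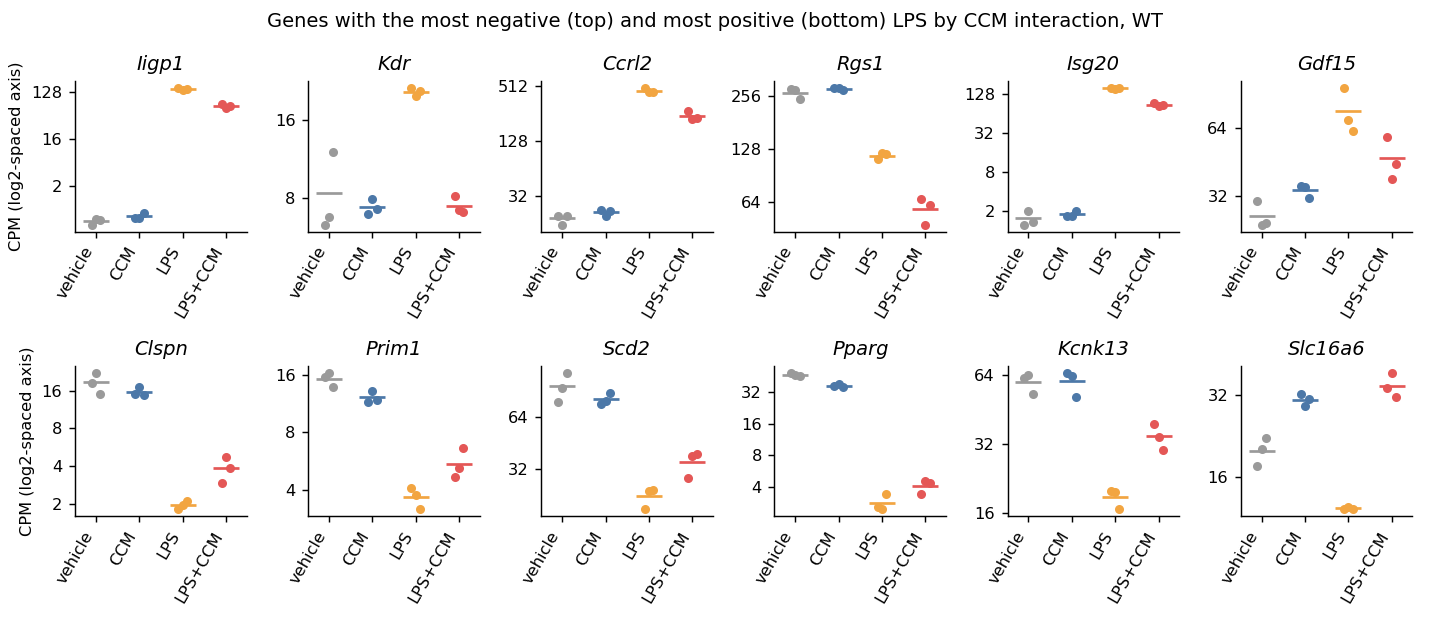
CPM (log2-spaced axes) in the 12 WT libraries for the 6 genes with the most negative (upper row) and the 6 with the most positive (lower row) LPS by CCM interaction among genes with an average log2 CPM of at least 3; points are libraries, 3 per group, and lines are means. In the upper row the LPS+CCM points lie below the LPS points, and in the lower row above them.

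In KO cells with CCM, LPS called 5250 of 13727 genes (38.2%), 2598 (18.9%) higher and 2652 (19.3%) lower. All 55 interferon-stimulated genes and all 28 panel genes tested were called higher there too. The difference between the WT and KO responses with CCM was called for 0 of 15086 genes (0%) by edgeR, with 98 at an unadjusted p under 0.05, and for 0 genes by DESeq2, by voom and without KO replicate 6. Missing the threshold does not show the WT and KO responses to be equal. The common coefficient of variation of KO LPS+CCM and CCM libraries was 0.350, and 0.191 without replicate 6, beside 0.0874 in WT.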

How the data were processed

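RNA with poly(A) tails from BMDMs was sequenced as paired ends by the authors. Per the labels and the study's methods, the authors used fastp for trimming, HISAT2 2.0.5 for alignment to mm10 and counting per gene was done with featureCounts 1.5.0-p3. The deposited table gives these raw counts over 54532 genes. It also lists each gene's length in bases, which entered no test. Each of the 36 count columns was matched to its sample, leaving 0 unused. Whether counting used strand is not given in the sources used here, so genes whose annotated intervals overlap (GENCODE M21, GRCm38) are uncertain to that extent. Of the genes in the table, 29299 had 0 counts in the 6 libraries.

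Counts were tested with edgeR 4.0.16 in R 4.3.3, on the groups compared only: filterByExpr, TMM, estimateDisp, glmQLFit and glmQLFTest, two-sided, with Benjamini-Hochberg adjustment at 0.05. Interactions were terms of fits on the 12 WT libraries or the 18 libraries with CCM. CPM use TMM factors, except in the Arntl ranges by genotype. Log2 CPM use a prior count of 2, and SE is the standard error of a log2 fold change. The exact permutation test used scipy 1.17.1. The fits were tested on simulated counts with 200 genes changed by 1 on the log2 scale. The genotype by LPS fit recovered few of these genes, far fewer than the other fits, so its lack of calls does not measure how alike the WT and KO responses were. The smallest chi-square per degree of freedom between WT libraries of a group was 5.61, so pooled over genes the replicate spread exceeded counting noise. Genes with many counts weigh most in this value. It does not show which of the 2 limits the precision for genes with few counts.

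Alternatives were DESeq2 1.42.0, voom with quality weights (limma 3.58.1), RLE, upper-quartile and total-count scaling, no filter, the replicate number as a block, wider sets of libraries, a test against a log2 change of 1, and leaving out each library. The 20 gene lists, the 9 marker lists, the members and the tests were chosen with earlier results of these data known. Named were the panel, up to 3 called genes per list and direction with an average log2 CPM of at least 1, the 10 with the largest change or interaction in each direction with an average of at least 3, and list members called in the interaction. A few genes that this rule names are not reported here, but they stay in all fits and list counts. No set test was run. Upstream sequences and motif counts come from RefSeq (GRCm38.p6).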

Additional observations from a re-analysis of the deposited data

Results flagged for a closer look

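For 66 of the named genes, the LPS response with CCM and without it differed by the interaction test in the 12 WT libraries, and the difference of the log2 fold changes (with CCM minus without) is given here for each. Among interferon-stimulated genes and antigen presentation genes the differences were Iigp1 (-1.41), Isg20 (-1.09), Trim21 (-0.81), Ifih1 (-0.72), Irgm2 (-0.63), Irgm1 (-0.58), Igtp (-0.57), Parp9 (-0.56), Trim25 (-0.49), Dtx3l (-0.42), Tap1 (-0.58), Tap2 (-0.37), Psmb9 (-0.37), Nlrc5 (-0.62), Cd83 (-0.87) and Cd274 (-0.57). Among cytokine, chemokine and receptor genes they were Ccrl2 (-1.15), Gdf15 (-1.09), Il15 (-1.07), Ccl3 (-0.78), Il18 (-0.74), Il15ra (-0.74) and Tnfrsf1b (-0.32). Among transcription factors and regulators of signalling they were Nfkb2 (-0.38), Rel (-0.50), Irf1 (-0.60), Stat3 (-0.40), Batf2 (-0.74), Rgs1 (-1.10) and Rgs2 (-0.56). Among cell death genes they were Casp8 (-0.48), Aim2 (-0.50), Ripk2 (-0.56), Cflar (-0.49), Bcl2a1b (-0.76) and Bcl2a1d (-0.69).

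Among genes of metabolism, lipids and stress the differences were Glul (0.78), Slc7a11 (-0.83), Gch1 (-0.40), Pdk1 (0.63), Tgm2 (-0.53), Slc16a6 (0.86), Sqle (0.45), Fasn (0.44), Scd2 (0.88), Arl4c (-0.54), Pparg (0.87), Hspa1a (1.19) and Sesn1 (0.85). Among phagocytic receptors they were Mertk (-0.65), Clec4d (-0.46) and Scarb1 (0.48). Among cell cycle and replication genes they were Clspn (1.21), Prim1 (0.89), Mcm5 (0.71), E2f1 (0.60), Ccnd1 (0.77) and Cdkn1a (-0.70). Other genes were Kdr (-1.30), Fzd1 (-0.97), Setdb2 (-0.95), Pla2g16 (-0.93), Kcnk13 (0.86), Snx24 (0.86), Samd1 (0.83) and Tmem41a (0.82). Of the 66, 47 were more negative and 19 more positive with CCM. In 20 alternative settings, 27 of them lost their call only in the fit of all 36 libraries, and 17 lost it in 10 or more. With total counts alone 30 of the 47 and 19 of the 19 were called in the same direction, and 34 of the 66 overlap another annotated gene.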

How the results depend on the processing

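Counts of the 8555 called genes stayed within 1.5 times under DESeq2 (8021), RLE size factors (8532), no filter beyond 1 count (9046), voom (8647), all 12 WT libraries (8753) and when a library was left out (7926 to 8302). With all 36 libraries in a fit, 4883 were called (2483 higher, 2400 lower), and against a log2 change of 1, 2168 (1225 higher, 943 lower). With total counts alone, 2595 were higher and 6975 lower. Named genes that changed sign there were Nr1h2 (-0.024), Pdk1 (-0.23), Tgm2 (-0.065), Kdr (-0.29), Slc16a6 (-0.13) and Sirpa (-0.18). For LPS against vehicle, a setting chosen after seeing the data, Slco4a1 (-0.042), Abcb1a (-0.031), Ccng2 (-0.16) and Tpi1 (-0.30) did so.

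The 308 interaction calls were 688 with DESeq2 (123 more positive, 565 more negative), 721 with no filter (301 and 420), 0 with all 36 libraries (0 and 0), 126 more positive with voom, and 230 and 117 with total counts alone. Leave-one-out fits gave 149 to 295 calls, 18 to 69 more positive and 127 to 226 more negative. The total fell by more than 1.5 times without CCM replicate 1, 2 or 3, LPS+CCM replicate 2 or 3, LPS replicate 1 or 2, or vehicle replicate 2. The cause of these changes was not tested. The common coefficient of variation was 0.291 in the 36-library fit and 0.0984 in that of 12. All 66 named differences kept their sign in each setting, but 34 to 62 were called when a library was left out and 0 with all 36 libraries.

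A fit that took the replicate number as a block called 8837 genes for LPS and 548 for the interaction (150 more positive, 398 more negative, all 308 among them). Same-numbered CCM and LPS+CCM libraries correlated at 0.268, 0.0341 and 0.200, and pair 2 is below the 0.1 set for pairing. Over the 12 libraries, the 18 same-number pairs correlated at 0.0602 to 0.428, 15 of them above 0.1, and each more than its pairs of other numbers, which hints at pairing in the data that the labels do not give. The differences in response size were -0.13 and 0.17 with same-numbered baselines. They were -0.05 and 0.25 with total counts, -0.08 and 0.13 with genes chosen without KO replicate 6, and -0.141 to -0.125 and 0.157 to 0.192 when a library was left out.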

Other observations

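A few genes, chosen after their values were seen, had calls of opposite direction with and without CCM under TMM scaling and a called interaction. Sirpa, the receptor for the signal CD47 that restrains phagocytosis, was at 1892 ± 61.2 CPM (SD, n = 3) with CCM and 2057 ± 55.3 with LPS+CCM, and at 2067 ± 96.5 with vehicle and 1813 ± 84.8 with LPS. Its log2 fold change was 0.13 with CCM and -0.16 without. Slco4a1, an organic anion transporter, was at 21.2 ± 0.828 CPM with CCM and 15.5 ± 0.981 with LPS+CCM, and at 17.7 ± 0.622 with vehicle and 22.4 ± 0.865 with LPS. The drug exporter gene Abcb1a (-0.49 with CCM, 0.38 without), Pde7b (-0.23 and 0.56) and Ccng2 (-0.32 and 0.25) had the same pattern. The calls were opposite in 0 of these 5 genes with total counts alone: Sirpa was lower with LPS in both settings (-0.18 and -0.57), and without CCM Slco4a1 (-0.042), Abcb1a (-0.031), Pde7b (0.15) and Ccng2 (-0.16) were not called. Tpi1, a glycolytic enzyme, was called higher with CCM and not called without, at 254 ± 19.7 CPM with CCM and 392 ± 26.8 with LPS+CCM, against 279 ± 18.1 with vehicle and 295 ± 37.0 with LPS, and its interaction was called (0.53, adjusted p = 0.0388). It was called higher with CCM (0.32) and lower without (-0.30) when total counts alone set the scale.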
